A study of Mus musculus with 16 samples.

Results

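The aryl hydrocarbon receptor battery is the set of 8 genes made up of the receptor (Ahr), its partner (Arnt), its repressors (Ahrr and Tiparp), and its best known enzyme targets (Cyp1a1, Cyp1a2, Cyp1b1 and Nqo1). Its members were taken as all probe sets with exactly 1 gene symbol among these names or their synonyms, which gave 17 of 45037 non-control probe sets and 8 of 18193 genes. The rule uses symbols alone.

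Levels came from whole-genome Affymetrix arrays, each hybridized with RNA of the left lung of one Balb/c mouse aged 23 weeks; Balb/c is an inbred strain widely used in models of allergic airway disease. The 4 groups held 4 animals each: female offspring after second-hand smoke (SHS) in utero, female offspring after filtered air in utero, male offspring after SHS in utero, and male offspring after filtered air in utero. Sidestream smoke stood in for SHS, at 10 mg/m3 of suspended particles for 5 h per day on 7 days a week, and air controls were kept on the same schedule. All 16 mice, air controls included, were sensitized as adults with injections of ovalbumin (OVA) at 19 and 21 weeks and then challenged with OVA aerosol on alternate days in weeks 22 and 23, so the comparison is of SHS against air in lungs with an allergic challenge, and no unchallenged lung was analysed here. The labels call the animals of a group biological replicates but do not give their mothers or litters, so littermates may be among them and the p-values measure the spread between these lungs.

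The receptor is a ligand-activated transcription factor that rests in the cytosol with chaperones until a ligand, such as a polycyclic aromatic hydrocarbon of tobacco smoke or an indole made from tryptophan, binds it. It then enters the nucleus, pairs with ARNT and binds DNA at a short core sequence before genes such as Cyp1a1, whose enzyme oxidizes the ligand. AHRR, which competes for ARNT, and TIPARP, which modifies the receptor by ADP-ribosylation, are themselves induced and damp the response. In mouse lung Cyp1a1 is known as a gene of endothelium and epithelium that smoke induces, and Cyp1b1 as a gene of mesenchymal and other stromal cells.

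Upstream sequences are shown for Cyp1b1, the member that passed the test, and for Cyp1a1 and Ahrr, which are classical targets that did not. Each is the 250 bases that end just before the RefSeq transcript start in the GRCm38.p6 assembly, written in the direction of transcription, with GCGTG, the core of the receptor's binding sequence, in capitals (CACGC where the match lies on the opposite strand). The Cyp1b1 stretch is chr17:79715062-79715311 on the minus strand, the Cyp1a1 stretch chr9:57697363-57697612 on the plus strand and the Ahrr stretch chr13:74292332-74292581 on the minus strand.
Cyp1b1 promoter: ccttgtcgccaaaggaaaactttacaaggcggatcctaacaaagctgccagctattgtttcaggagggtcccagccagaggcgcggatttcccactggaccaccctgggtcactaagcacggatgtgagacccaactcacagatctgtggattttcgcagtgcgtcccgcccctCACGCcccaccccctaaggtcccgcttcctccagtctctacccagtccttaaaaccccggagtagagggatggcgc
Cyp1a1 promoter: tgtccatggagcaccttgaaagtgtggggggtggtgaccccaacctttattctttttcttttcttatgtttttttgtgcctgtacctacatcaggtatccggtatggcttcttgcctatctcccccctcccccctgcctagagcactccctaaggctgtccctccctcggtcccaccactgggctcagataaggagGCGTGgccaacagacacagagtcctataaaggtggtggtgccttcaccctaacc
Ahrr promoter: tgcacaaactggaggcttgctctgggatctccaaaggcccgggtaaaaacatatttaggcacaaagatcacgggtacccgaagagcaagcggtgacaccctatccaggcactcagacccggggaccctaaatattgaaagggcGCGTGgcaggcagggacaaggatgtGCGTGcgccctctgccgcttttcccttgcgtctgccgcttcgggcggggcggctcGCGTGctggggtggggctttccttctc

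Of the 8 genes, 7 were in the RefSeq promoter table, and Ahr was not. GCGTG was searched on both strands of the 250 bases and was found before 5 of these 7 genes, against 28.2% of all 32851 promoters in the table. Ahrr held 3 matches, at 107, 82 and 27 bases before the start. The match lay 54 bases before the start of Cyp1a1, 29 before that of Arnt, 76 before that of Cyp1b1 and 170 before that of Tiparp, in the last 2 on the opposite strand. Cyp1a2 and Nqo1 had none in this window. The longer form TNGCGTG, which contains the core, was found before Ahrr alone among the members and in 4.1% of all promoters. TGACNNNGC, the core of the antioxidant response element bound by NRF2, was found at 2 places before Arnt, in no other member including Nqo1, and in 10.2% of all promoters. Such matches are descriptions of the letters in this window and not sites of binding.

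The arrays were comparable in level. The deposited values, taken as log2, ran from 2.58 to 15.2 and array medians from 7.0 to 7.04. The correlation of 2 arrays of the same sex was at least 0.99. Between the sexes it was at most 0.972, and the 3' over 5' signal of the Actb control differed (0.16 to 0.24 in all 8 females and 1.0 to 1.24 in all 8 males on the log2 scale), so SHS was set against air within each sex and no level of females is set against males. Within a sex this measure did not separate SHS from air lungs (two-sided exact permutation p = 0.4857 in females and 0.1429 in males, where 0.0286 is the smallest p that 4 against 4 allows). Of 4 lung markers checked, Sftpc (15.0 to 15.2), Scgb1a1 (14.9 to 15.2) and Ager (14.2 to 14.6) were near the top of the scale on every array, and Sftpb ranged from 11.7 to 13.9. Leaving out SHS females replicate 4 alone raised the number of called probe sets in females to 3604, against 1294 with all arrays, and the Cyp1b1 results and pathway counts that it changes are given with and without it.

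One gene of the 8 passed the test. In males, Cyp1b1 was 1.58-fold higher in SHS than in air lungs, and it was also called when the effect was averaged over the sexes. Ahr, Arnt, Ahrr, Tiparp, Cyp1a1, Cyp1a2 and Nqo1 passed in no comparison. By limma's moderated test, with p adjusted by the Benjamini-Hochberg method over all 45037 probe sets and calls at an adjusted p under 0.05, 0 of the 17 probe sets were called in females (2.87% of all probe sets), 1 in males (5.18% of all) and 2 in the averaged effect (10.3% of all). At an unadjusted p under 0.05 there were 2 of 17 in females, both of Cyp1b1, against 16.0% of all probe sets. The median log2 difference, SHS minus air, over the 17 probe sets was -0.011 in females and -0.075 in males, and over all probe sets it was -0.009 in females and -0.002 in males. The counts of 0, 1 and 2 among 17 lie close to these background shares.

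**Figure D1:**
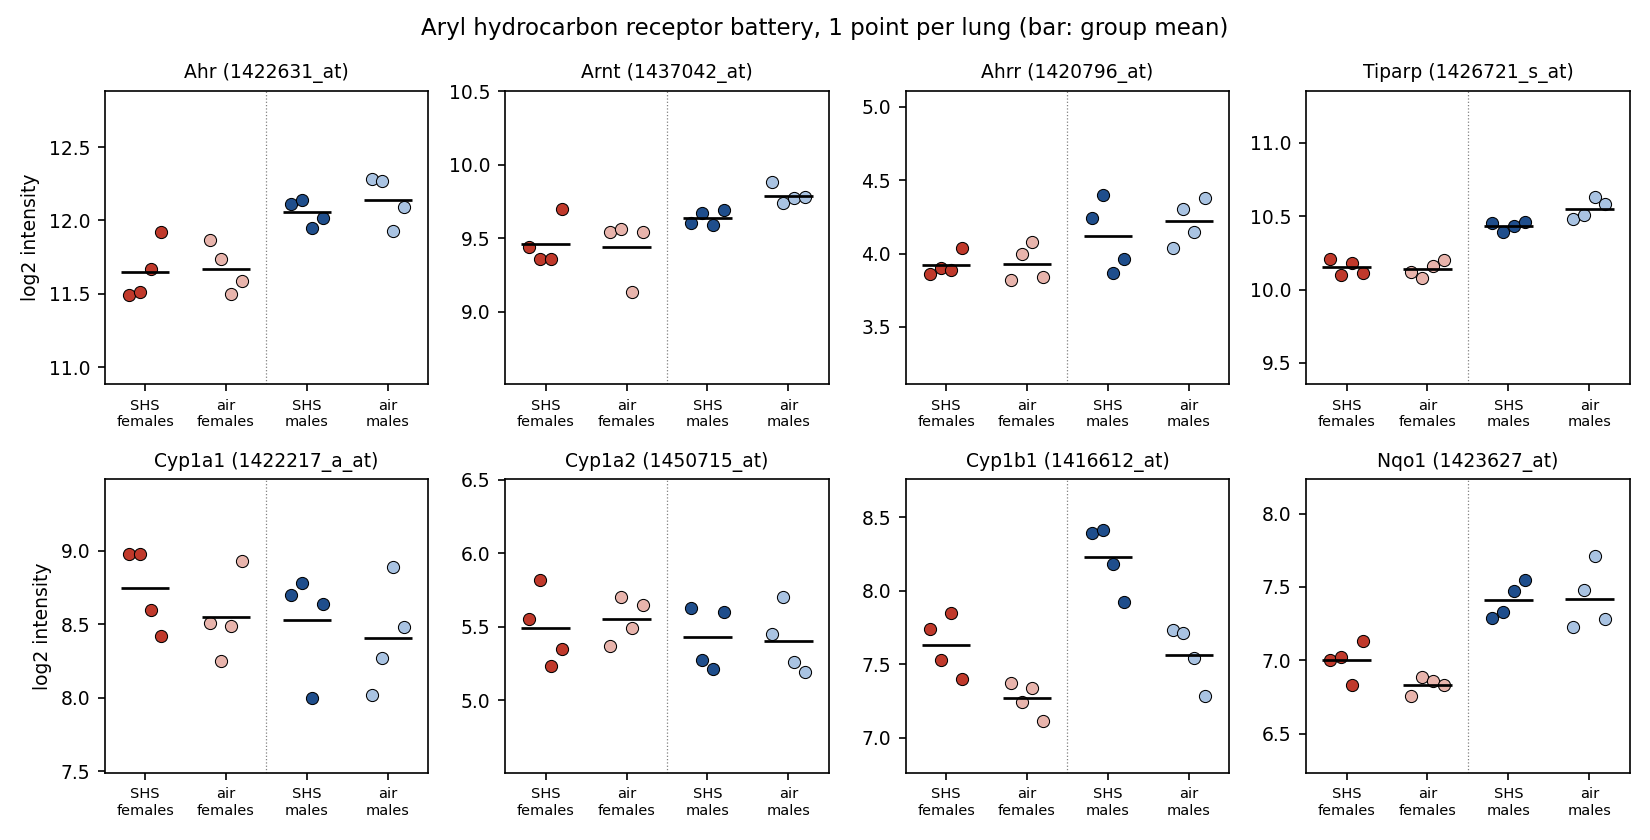
Log2 intensity (vertical axis, spanning 2 units in every panel) of the probe set with the highest mean of each of the 8 genes, 1 point per lung, in SHS females, air females, SHS males and air males, with bars at the group means (n = 4). Cyp1b1 is the panel in which the 4 SHS lungs lie above the 4 air lungs in both sexes.

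Ahr, the receptor (chr12:35497979-35534989), was among the brightest genes, with its main probe set, 1422631_at, at the 97.6th percentile of all mean levels. SHS females had 11.49, 11.51, 11.67 and 11.92, against 11.87, 11.74, 11.5 and 11.59 in air females. SHS males had 12.11, 12.14, 11.95 and 12.02, against 12.28, 12.27, 11.93 and 12.09 in air males. The groups overlapped in both sexes, and the log2 difference was -0.027 ± 0.11 (SE) in females and -0.087 ± 0.11 in males, with 95% intervals of -0.25 to 0.2 and -0.31 to 0.14. The adjusted p was 0.94 in females and 0.711 in males (limma). The second probe set, 1450695_at, gave -0.032 in females and 0.0043 in males, and it correlated with the first at r = 0.77 over the 16 arrays after the mean of each sex was taken off.

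Arnt, the partner that the receptor needs to bind DNA (chr3:95434367-95497240), has 5 probe sets. The brightest, 1437042_at, had 9.44, 9.36, 9.36 and 9.7 in SHS females, against 9.54, 9.56, 9.13 and 9.54 in air females. It had 9.6, 9.67, 9.59 and 9.69 in SHS males, against 9.88, 9.74, 9.77 and 9.78 in air males. In males every SHS lung thus lay below every air lung, by a log2 difference of -0.15 ± 0.095 with an adjusted p of 0.391, while in females the groups overlapped (0.019 ± 0.095, adjusted p = 0.953). The other 4 probe sets had differences between -0.056 and -0.097 in females and between -0.013 and -0.17 in males, and none was called. In RNA of whole lungs, fewer cells that hold a transcript and less of it per cell cannot be told apart, here or in the results that follow.

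The repressors came next. Ahrr (chr13:74211118-74292331) sat at the 9.4th percentile of mean levels, between 3.82 and 4.4 on all arrays, where the 3 control probe sets for a bacterial transcript ranged from 3.08 to 4.04. It had 3.86, 3.9, 3.89 and 4.04 in SHS females, against 3.82, 4.0, 4.08 and 3.84 in air females. It had 4.24, 4.4, 3.87 and 3.96 in SHS males, against 4.04, 4.3, 4.15 and 4.38 in air males. At this level, close to that of the controls, its differences of -0.011 in females (adjusted p = 0.978) and -0.1 in males (adjusted p = 0.665) bound the signal and not the transcript.

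Tiparp (chr3:65528447-65555518) has 3 probe sets, at percentiles 90.7, 82.5 and 82.0 of mean levels. The brightest, 1426721_s_at, had 10.21, 10.1, 10.18 and 10.11 in SHS females, against 10.12, 10.08, 10.16 and 10.2 in air females. It had 10.45, 10.39, 10.43 and 10.46 in SHS males, against 10.48, 10.51, 10.63 and 10.58 in air males. The second, 1452160_at, had 8.88, 8.76, 9.07 and 8.89 in SHS females, against 8.96, 8.76, 8.73 and 8.82 in air females. It had 9.86, 9.9, 9.94 and 9.74 in SHS males, against 10.17, 10.01, 10.11 and 10.0 in air males. In both probe sets the 4 SHS males lay below the 4 air males, and the females overlapped. The difference in males was -0.12 ± 0.059 (adjusted p = 0.277) and -0.21 ± 0.077 (adjusted p = 0.119), so neither passed. The third probe set, 1452161_at, differed by 0.046 in females and -0.075 in males and hardly followed the other 2 (r = 0.1 and 0.08 after removal of the sex means). The first 2 correlated with each other at r = 0.46. For 1452160_at the effect in females minus that in males was 0.3 ± 0.11, with an unadjusted p of 0.0141 and an adjusted p of 0.521.

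The cytochrome P450 genes of family 1 encode the enzymes that the receptor is best known for inducing, which oxidize polycyclic hydrocarbons and, in the case of CYP1B1, also retinoids and oestrogens. Cyp1a1 (chr9:57687928-57703824) and Cyp1a2 (chr9:57676937-57683655) lie head to head, with 13958 bases between their transcript starts. Cyp1a1 had 8.98, 8.98, 8.6 and 8.42 in SHS females, against 8.51, 8.25, 8.49 and 8.93 in air females. It had 8.7, 8.78, 8.0 and 8.64 in SHS males, against 8.02, 8.27, 8.89 and 8.48 in air males. In each sex 3 of 4 SHS lungs were above the mean of the air lungs and 1 was below it, and the range of each SHS group overlapped that of its air group. The log2 difference was 0.2 ± 0.2 in females (95% interval -0.22 to 0.61, adjusted p = 0.689) and 0.12 ± 0.2 in males (-0.3 to 0.53, adjusted p = 0.801), so that a change of up to 1.53-fold in females and 1.44-fold in males lies within the intervals. These intervals were the widest of the battery in either sex.

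Cyp1a2, the liver form of the pair, sat at the 26.4th percentile of mean levels. It had 5.55, 5.82, 5.23 and 5.35 in SHS females, against 5.37, 5.7, 5.49 and 5.65 in air females. It had 5.63, 5.27, 5.21 and 5.6 in SHS males, against 5.45, 5.7, 5.26 and 5.19 in air males. The groups overlapped fully, with differences of -0.065 in females (adjusted p = 0.876) and 0.026 in males (adjusted p = 0.943).

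Cyp1b1 (chr17:79706940-79715061) encodes the third enzyme of the family. Its brightest probe set, 1416612_at, had 7.74, 7.53, 7.85 and 7.4 in SHS females, against 7.37, 7.24, 7.34 and 7.11 in air females. It had 8.39, 8.41, 8.18 and 7.92 in SHS males, against 7.73, 7.71, 7.54 and 7.28 in air males. Every SHS lung lay above every air lung in both sexes, a pattern of all SHS above all air that 5.61% of all probe sets showed in females and 7.87% in males. In females it was the only one of the 17 to do so, and no member showed the reverse (2.64% of all probe sets). In males it was again the only one, and 3 members showed the reverse, the probe set of Arnt and both of Tiparp named above (7.51% of all).

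The log2 difference of this probe set was 0.66 ± 0.12 in males, or 1.58-fold with a 95% interval of 1.32 to 1.9, and it was called (adjusted p = 0.00498). In females it was 0.37 ± 0.12, or 1.29-fold with an interval of 1.07 to 1.54, and it was not called (unadjusted p = 0.00905, adjusted p = 0.134). Averaged over the sexes it was 0.51 ± 0.088, or 1.43-fold (adjusted p = 0.00103). The effect in females minus that in males was -0.3 ± 0.18 (adjusted p = 0.694), so the sexes were not shown to differ. Of the SHS females, replicate 4 had the lowest value, and without it the female difference was 0.44 with an adjusted p of 0.0413. The males were called with each of the 16 arrays left out in turn, at adjusted p up to 0.0218.

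The 3 probe sets of Cyp1b1 did not all give the same difference. Their mean levels lay at percentile 59.5 for 1416612_at, 25.1 for 1416613_at and 22.4 for 1432081_at, so the last 2 were dimmer than Cyp1a2. The second, 1416613_at, had 6.07, 5.8, 6.09 and 5.62 in SHS females, against 5.64, 4.97, 5.49 and 5.25 in air females. It had 5.25, 5.44, 5.34 and 5.06 in SHS males, against 5.3, 4.97, 5.22 and 4.36 in air males. The difference was 0.56 ± 0.18 in females (adjusted p = 0.109) and 0.31 ± 0.18 in males (adjusted p = 0.359), with overlap in both sexes, and was called only in the averaged effect (0.43 ± 0.13, adjusted p = 0.0356). That call was lost, at adjusted p up to 0.0772, when any of 9 single arrays was left out (SHS females 1 or 3, air females 2 or 4, SHS males 1, 2 or 3, air males 2 or 4). In females it was gained without SHS females replicate 4 (adjusted p = 0.0426) or air males replicate 4 (0.0401). The third, 1432081_at, had differences of -0.16 ± 0.11 in females and -0.022 ± 0.11 in males and was not called. The first 2 correlated with each other at r = 0.77 and with the third at -0.25 and -0.48, over 16 arrays after removal of the sex means. The platform annotation derives the first 2 from the same source sequence and the third from another.

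**Figure D2:**
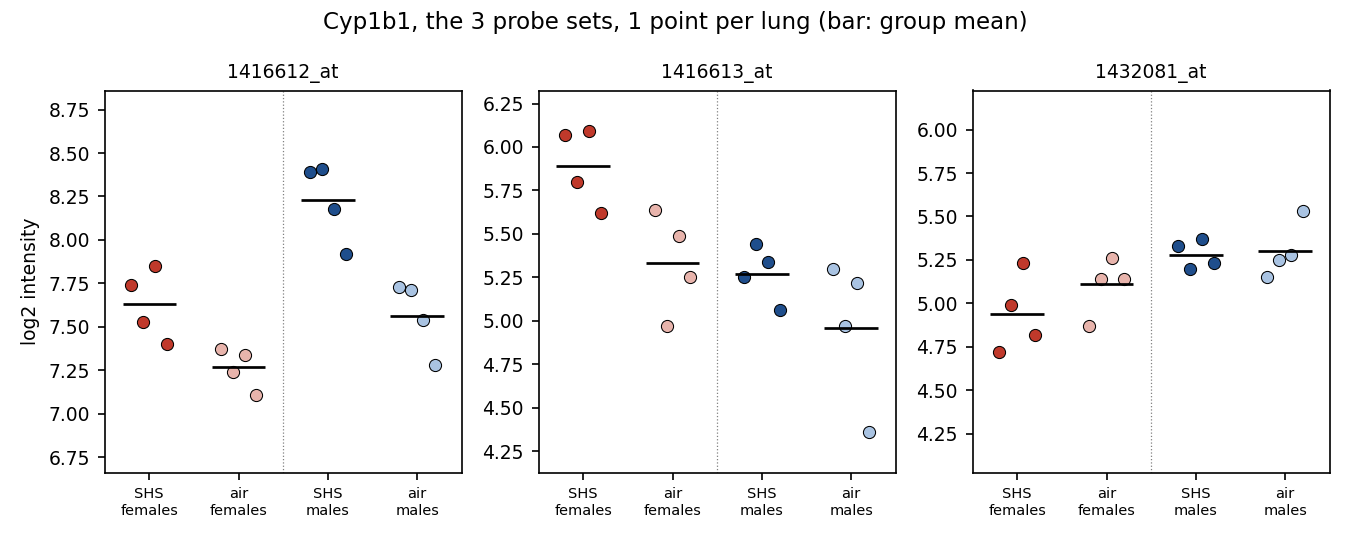
Log2 intensity (vertical axes of equal span) of the 3 probe sets of Cyp1b1, 1 point per lung in SHS females, air females, SHS males and air males, with bars at the group means. The SHS lungs lie above the air lungs in the left panel, mostly above in the middle panel, and among them in the right panel.

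Markers of cells known to express Cyp1b1 were set beside it. Over all probe sets, limma's test called 2.87% in females and 5.18% in males. Of 10 fibroblast markers, all measured, 0 were higher by this test in either sex and 1 was lower in females. Their mean level was 10.61 to 10.78 in SHS males, against 10.67 to 10.73 in air males (two-sided exact permutation p = 0.9429). In females it was 10.71 to 11.07 after SHS, against 10.94 to 11.16 in air (exact permutation p = 0.4571). Of 10 smooth muscle and pericyte markers, all measured, none was called in either sex. Their mean level was 10.29 to 10.4 in SHS males, against 10.21 to 10.29 in air males (exact permutation p = 0.0571). In females it was 10.32 to 10.43 after SHS, against 10.08 to 10.53 in air (exact permutation p = 0.5143). In the averaged effect, in which 10.3% of all probe sets were called, 3 of these 10 were higher and 3 of the 10 fibroblast markers were lower. Of 9 measured alveolar macrophage markers 1 was higher in each sex. Their mean level was 10.4 to 10.5 in SHS males, against 10.21 to 10.33 in air males (exact permutation p = 0.0286). In females it was 10.33 to 10.73 after SHS, against 10.12 to 10.42 in air (exact permutation p = 0.0571). Of 9 measured dendritic cell markers 2 were higher in females and 3 in males. Their mean level was 8.26 to 8.48 in SHS males, against 7.94 to 8.06 in air males (exact permutation p = 0.0286). In females it was 8.16 to 8.58 after SHS, against 8.0 to 8.17 in air (exact permutation p = 0.0571).

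Cell cycle genes were higher after SHS in both sexes. All 9 measured of 10 were called in each sex, against 2.87% of all probe sets in females and 5.18% in males. Their mean level was 8.2 to 8.95 in SHS females, against 7.37 to 7.68 in air females. In males it was 8.42 to 8.94 after SHS, against 7.57 to 7.86 in air (exact permutation p = 0.0286 in each sex, the smallest possible). The lowest SHS lung of each sex was replicate 4 for the cell cycle genes (8.2 in females and 8.42 in males) and for Cyp1b1 1416612_at (7.4 and 7.92). The air lungs did not share this order. There too replicate 4 had the lowest Cyp1b1 1416612_at value (7.11 in females and 7.28 in males). The cell cycle level of these air lungs was 7.6 in females (range 7.37 to 7.68) and 7.86 in males (range 7.57 to 7.86). The part of cell composition and of dividing cells in the Cyp1b1 difference was not tested.

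Nqo1 (chr8:107388225-107403205) encodes a quinone reductase that both the receptor and NRF2 are known to induce. It had 7.0, 7.02, 6.83 and 7.13 in SHS females, against 6.76, 6.89, 6.86 and 6.83 in air females. It had 7.29, 7.33, 7.47 and 7.55 in SHS males, against 7.23, 7.48, 7.71 and 7.28 in air males. Of the SHS females 3 lay above all air females and 1 lay among them, with a difference of 0.16 ± 0.097 (95% interval -0.043 to 0.37, adjusted p = 0.452). In males the groups overlapped fully (-0.014 ± 0.097, adjusted p = 0.957).

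**Figure D3:**
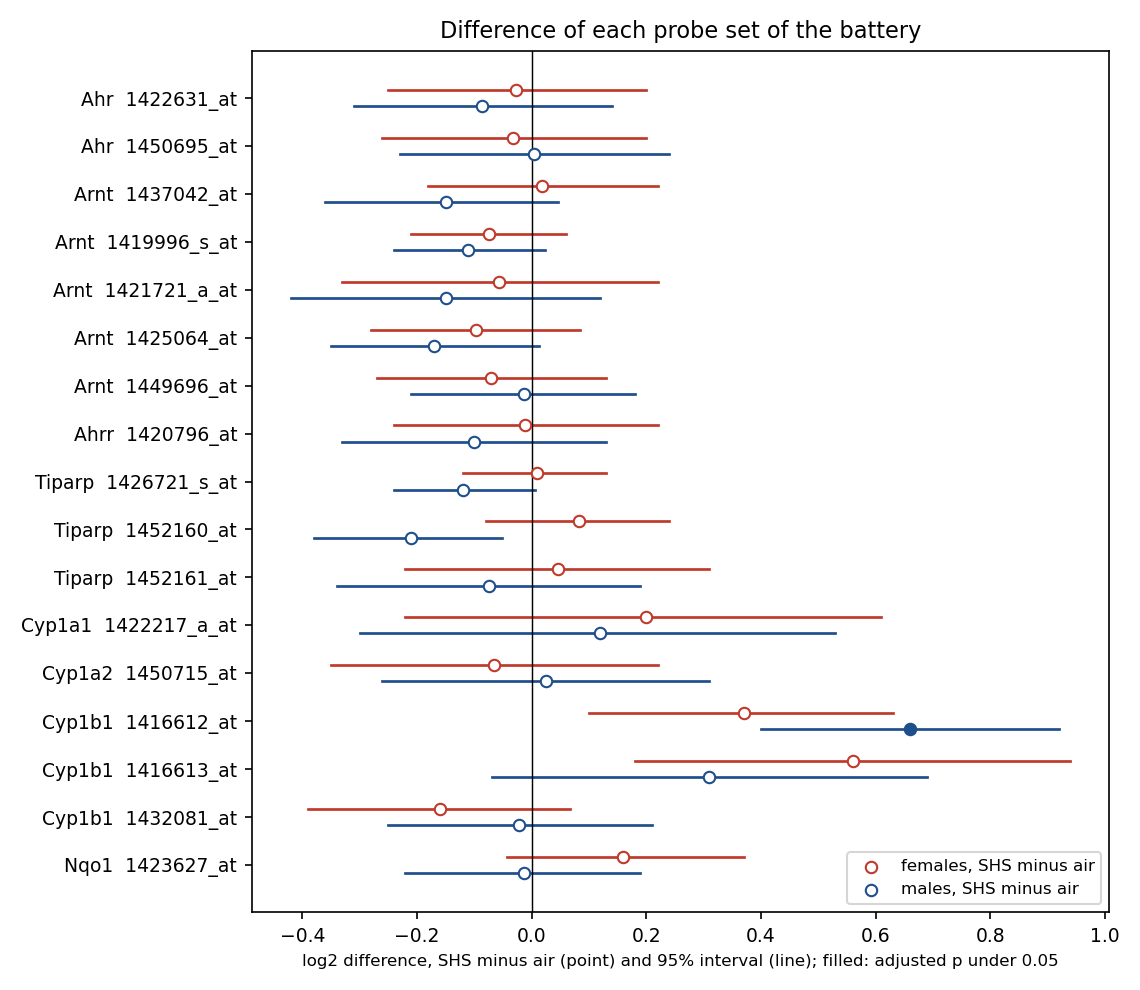
Log2 difference, SHS minus air (horizontal axis), with its 95% interval for each of the 17 probe sets, in females (upper line of each pair) and males (lower line); a filled point has an adjusted p under 0.05. The filled point is Cyp1b1 1416612_at in males, at 0.66. Of the other intervals, those of Cyp1b1 1416612_at and 1416613_at in females and of Tiparp 1452160_at in males leave out 0.

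The intervals set how large an undetected change could be. For 14 of the 17 probe sets in females and 15 in males, the 95% interval of the fold lay wholly within 1.5-fold in either direction. A p above the threshold does not show equal levels, and for Ahrr and Cyp1a2 the low signal limits what the interval says about the transcript. For the difference between the sexes in the SHS effect, 0 of 17 probe sets were called (0.0% of all probe sets, limma), and 1 of 17 had an unadjusted p under 0.05 (8.24% of all), Tiparp 1452160_at.

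The genes around the battery were counted from lists of the pathway, with the brightest probe set standing for each gene. These lists were drawn up with earlier results of these arrays known. In the receptor's cytosolic complex and the relatives of ARNT, 8 of 11 genes were measured. None was called in females (2.87% of all probe sets), with 2 of 8 at an unadjusted p under 0.05 (16.0% of all, limma). In males 1 was called (5.18% of all), Tbl3 (0.33 ± 0.069, adjusted p = 0.0101), whose other 2 probe sets were not called (-0.1 and 0.08). Hsp90aa1, the chaperone that holds the unliganded receptor, was not called. Nor was Arntl, which had the largest difference of the list in females (0.41 ± 0.17, adjusted p = 0.236). The list median was 0.1 in females and 0.13 in males. Of 8 other bHLH-PAS factors, most of which pair with ARNT, such as Hif1a and Epas1 of the hypoxia response, none was called in either sex. None was called in the averaged effect, against 10.3% of all probe sets. Without SHS females replicate 4, 1 was lower in the averaged effect, in a fit that called 6983 of all 45037 probe sets. In females 1 of 8 had an unadjusted p under 0.05, against 16.0% of all probe sets (limma).

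Of 10 enzymes that degrade tryptophan or make receptor ligands from it, 2 were higher in females (2.87% of all probe sets were called there, in either direction) and 1 in males (5.18% of all), with none lower and list medians of 0.13 and 0.14. Without air females replicate 2 the female count was 0. Tdo2, the liver-type dioxygenase that opens the indole ring to give the precursor of kynurenine, was higher in both sexes. It had 7.44, 7.16, 8.06 and 7.1 in SHS females, against 6.72, 6.48, 6.59 and 6.59 in air females. It had 9.01, 8.92, 8.71 and 8.41 in SHS males, against 7.54, 7.85, 7.72 and 8.22 in air males. The groups did not overlap in either sex, and the difference was 0.85 ± 0.18 in females (1.8-fold, adjusted p = 0.0149) and 0.93 ± 0.18 in males (1.9-fold, adjusted p = 0.00631). Without air females replicate 2 the female value was 0.81 with an adjusted p of 0.0538. Its 2 other probe sets gave 0.16 and 0.38 in females, neither called, and 0.5 and 0.89 in males, the second of them called (adjusted p = 0.0124).

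Kynu, the kynureninase further along this route, was higher in SHS females at 7.06, 7.32, 7.53 and 6.82, against 6.89, 6.71, 6.64 and 6.49 in air females (0.5 ± 0.13, 1.41-fold, adjusted p = 0.0456). The groups overlapped, since 6.82 lay below one air lung, and the call held in 3 of the 16 fits with 1 array left out, with adjusted p up to 0.149. In males it was 0.24 ± 0.13 (adjusted p = 0.312), and its second probe set was called in neither sex. The effect in females minus that in males was 0.26 ± 0.18 (adjusted p = 0.753).

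Of 21 other genes known as receptor targets, 15 were measured, and 1 was called in each sex (2.87% and 5.18% of all probe sets), Aldh1a3, which oxidizes retinal to retinoic acid. It had 6.71, 6.18, 6.95 and 6.77 in SHS females, against 5.22, 5.35, 5.15 and 5.54 in air females. It had 8.76, 8.65, 8.42 and 8.31 in SHS males, against 5.78, 6.47, 5.91 and 6.24 in air males. All SHS lungs lay above all air lungs, and the difference was 2.53-fold in females (adjusted p = 0.000276) and 5.4-fold in males (adjusted p = 8.68e-07), with the effect in females minus that in males at -1.09 ± 0.23 (unadjusted p = 0.000166, adjusted p = 0.34). Its other 2 probe sets were lower in size, 0.3 and 0.01 in females and 0.44 and 0.18 in males, and of these only the 0.44 was called (adjusted p = 0.00419). The list median was -0.06 in females and -0.01 in males. Without SHS females replicate 4, Gsta2 (adjusted p = 0.00372), Selenbp1 (0.00167) and Cyp2s1 (0.038) were called lower in females too, and Gsta2 (0.0234) in males. Without both SHS arrays numbered 4 the lower count was 4 in females and 3 in males. In females these fits called 3604 and 3954 of all 45037 probe sets, in that order. In the averaged effect 2 members were higher and 4 lower (10.3% of all probe sets were called). The higher count was 1 without SHS males replicate 3. The lower ones were Gsta2, a glutathione transferase (-0.48, adjusted p = 0.0129), Selenbp1 (-0.37, adjusted p = 0.019), Cdkn1b, an inhibitor of the cell cycle (-0.36, adjusted p = 0.035), and Cyp2s1 (-0.26, adjusted p = 0.00661). The second probe set of Cdkn1b gave 0.11 and was not called, and the call of the first held in 5 of the 16 fits with 1 array left out. The higher members were Aldh1a3 and Fosl2 (0.19, adjusted p = 0.02).

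Among the P450 enzymes outside family 1 and their electron donors, 9 of 11 were measured and none was called in either sex (2.87% and 5.18% of all probe sets were). At an unadjusted p under 0.05 there were 3 of 9 in females, against 16.0% of all probe sets (limma). Without SHS females replicate 4, 3 were lower in females, among them Cyp2f2 (-0.5, adjusted p = 0.0155) and Cyp2d22 (-0.71, adjusted p = 0.00165). Without both SHS arrays numbered 4, 3 were lower in females and 2 in males. In females these fits called 3604 and 3954 of all 45037 probe sets, in that order. In the averaged effect 2 were lower (10.3% of all probe sets were called), Cyp2f2 of club cells (-0.38 ± 0.088, adjusted p = 0.00941) and Cyp2d22 (-0.4 ± 0.12, adjusted p = 0.0431), with a list median of -0.16. The call of Cyp2d22 held in 2 of the 16 fits with 1 array left out (adjusted p up to 0.0882), and its second probe set was not called (-0.23, adjusted p = 0.148). The count was 3 without SHS females replicate 4 or SHS males replicate 4 and 1 in each of the other 14 such fits. Without SHS females replicate 4, 6983 of all 45037 probe sets were called in the averaged effect. Of the 9 measured club cell markers, among which Cyp2f2 is itself counted, 4 were lower in the averaged effect, with a list median of -0.01. Their mean level was 11.76 to 12.01 in SHS females, against 11.99 to 12.29 in air females (exact permutation p = 0.0571). In males it was 11.59 to 11.9 after SHS, against 11.73 to 11.82 in air (exact permutation p = 0.3714).

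NRF2, the sensor of oxidants and electrophiles that shares Nqo1 with the receptor, had 23 of 26 further targets and regulators measured. In females 2 were higher and 1 lower (2.87% of all probe sets were called), in males 7 were higher and 0 lower (5.18% of all), with list medians of 0.08 and 0.11, while Nqo1 itself was not called. Higher in females were Tkt (0.33, adjusted p = 0.00889) and Txnrd1 (0.32, adjusted p = 0.0169), whose other probe sets were not called there. The lower one was Gsta4 (-0.27, adjusted p = 0.0322). With 1 array left out these female calls held in 16, 13 and 10 of 16 fits, in that order. Tkt and Txnrd1 were also called in males (adjusted p = 0.00325 and 0.0064), as were Gsr (0.0185), Pgd (0.0261) and Me1 (0.0207). Without SHS females replicate 4 the female counts were 8 higher and 3 lower, with Gclc, Hmox1 (0.74, adjusted p = 0.0457), Pgd, Me1 and Slc7a11 among the higher. That fit called 3604 of all 45037 probe sets in females, against 1294 with all arrays. The higher count was 1 without SHS females replicate 1 or 2 or air females replicate 2. The male count was as low as 2, without SHS males replicate 1 or air males replicate 3. In the averaged effect 8 were higher and 1 lower (10.3% of all probe sets were called). Without SHS females replicate 4 these counts were 10 and 2, in a fit that called 6983 of all 45037 probe sets. With single arrays left out the averaged higher count ran from 7 to 10. In males the largest were Hmox1, the haem oxygenase (1.8-fold, adjusted p = 0.033), and Gclc, the catalytic subunit for glutathione synthesis (1.64-fold, adjusted p = 0.017). Hmox1 had 9.73, 9.73, 8.61 and 8.83 in SHS males, against 8.55, 8.33, 8.14 and 8.49 in air males, with no overlap. Gclc had 12.43, 12.38, 12.4 and 12.31 in SHS males, against 11.56, 11.84, 11.52 and 11.75 in air males. In SHS females Gclc had 12.53, 12.78, 12.57 and 11.66, against 11.68, 11.89, 11.79 and 11.88 in air females, so that replicate 4 alone lay below all the air lungs. With that lung the female difference was 0.57 (adjusted p = 0.0693) and without it 0.81 (adjusted p = 3.21e-05). Its second probe set was called in females with all arrays (0.58, adjusted p = 0.00431) and in males (0.85, adjusted p = 0.000255). Hmox1 in males was called in 10 and Gclc in 12 of the 16 fits with 1 array left out.

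**Figure D4:**
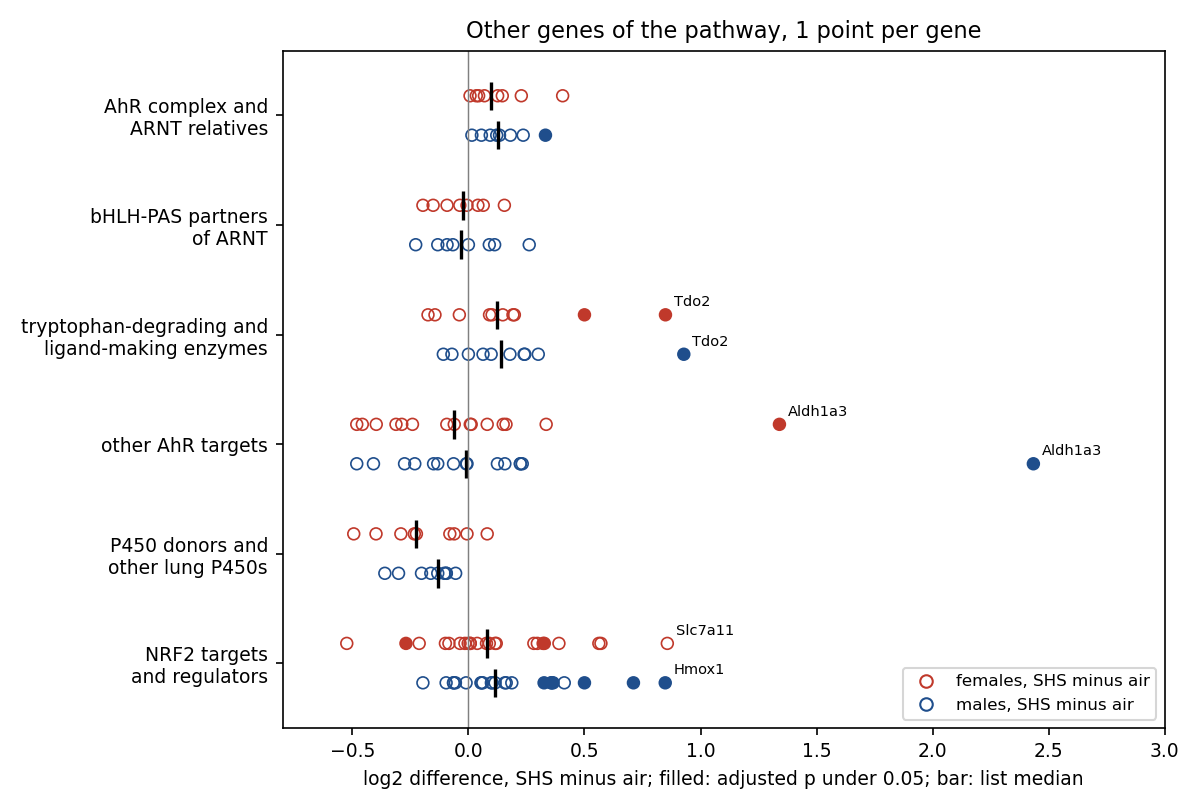
Log2 difference, SHS minus air (horizontal axis), of each measured gene of 6 pathway lists, in females (upper row of each pair) and males (lower row); filled points have an adjusted p under 0.05 and black bars are list medians. Aldh1a3 in males, at 2.43, lies farthest from 0, and the list medians lie between -0.22 and 0.14.

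Each member's level was compared with those of 11397 genes brighter than the median probe set, by Pearson's r over the 16 arrays after the mean of each sex was taken off. These values describe the arrays and share their groups, so genes that differ between SHS and air score high together. Closest to Cyp1b1 were Ddx39a (r = 0.93), Eftud2 (0.92) and Set (0.92), with log2 differences of 0.52, 0.21 and 0.09 in females and 0.57, 0.19 and 0.22 in males. Closest to Cyp1a1 were Ssbp4 (r = 0.74), 1700123O20Rik (0.73) and Bok (0.7), with differences no larger than 0.11. Closest to Tiparp were Cthrc1 (r = 0.89), Macc1 (0.88) and Zfp563 (0.86), which differed by -0.24, -0.31 and -0.31 in males and by -0.03, 0.03 and 0.03 in females. The first gene for Ahr was Elk3 (r = 0.91), for Arnt App (0.9) and for Nqo1 Spidr (0.8). For the dim members it was Dscam for Ahrr (r = 0.71) and Cort for Cyp1a2 (r = 0.77). Ahrr and Cyp1a2 were dimmer than the median probe set, so they could not appear among the genes compared. None of the other members was among the 3 genes closest to another member.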

How the data were processed

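The authors deposited 1 value for each probe set on each array, taken here as log2 from the range of the values. The summarisation, the normalization and the log base were not given in the labels. Per the submitters' processing notes limma was used, with no role or version stated. No further transformation was made, and 64 control probe sets were set aside. The platform annotation gave exactly 1 symbol for 34945 probe sets, of which 34741 had an Entrez identifier found in RefSeq (GRCm38.p6), the source of positions and promoters. No depth exists for arrays: the 4 arrays per group limit precision.

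Group means over all 16 arrays were fitted with limma 3.58.1 in R 4.3.3 (12 residual and 5.56 prior degrees of freedom). Tests were two-sided, and p was corrected by Benjamini-Hochberg over 45037 probe sets per comparison. Values after ± are standard errors. Marker levels and control probe sets were compared with exact permutation tests (scipy 1.17.1). The fit was tested on simulated data. Plots used matplotlib 3.10.9 and Python 3.11.15.

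Every probe set of the members was reported. Genes named from the pathway lists were called or among the 3 with the largest difference there, and not all such genes are named. Genes named for likeness were among the 3 of highest correlation with a member. Members and lists were chosen with earlier results of these data known. The labels do not say whether replicate numbers pair SHS and air lungs, and the main fit used no pairing. Alternatives were quantile normalization, median centring, a filter on dim probe sets, a replicate block, fits of 1 sex, array weights, a trended robust prior, a threshold of 0.1, and leaving out each array or both SHS arrays numbered 4.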

Additional observations from a re-analysis of the deposited data

Results flagged for a closer look

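In 68 sets of 4 lungs (17 probe sets in 4 groups), 2 held a lung farther from the others than Dixon's 95% limit, and chance gives about 1 in 20. Air females replicate 3 had 9.13 for Arnt 1437042_at, with the next lung at 9.54, a gap of 0.953 of the group's range. SHS males replicate 2 had 5.95 for Arnt 1449696_at, with the next lung at 6.27, a gap of 0.873 of the range. Neither probe set was called in any comparison.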

How the results depend on the processing

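The call of Cyp1b1 1416612_at in males was kept in all 25 alternatives (adjusted p 0.000658 to 0.0218), and in the averaged effect in all 24. In females, where 0 of 17 probe sets were called, 2 of Cyp1b1 were called with the replicate block (adjusted p = 0.0185 for 1416612_at and 0.0343 for 1416613_at), with array weights and without both SHS arrays numbered 4, and 0 to 2 with single arrays left out. In the averaged effect the count of 2 became 1 without probe sets below the 40th percentile, which leaves out 1416613_at, and ran from 1 to 2 with single arrays left out. Same-numbered SHS and air lungs correlated at -0.0796 to 0.267 in females and 0.0205 to 0.115 in males. The same number gave the highest correlation for SHS females 2 and 4 and SHS males 2. Such correlations cannot tell whether the numbers pair lungs, which the labels do not state. The block changed no other call of a member. Over all probe sets, females gave 1294 calls, 448 when fitted alone, 3985 with array weights and 657 to 3604 with single arrays left out. Males gave 2332, against 4398 with array weights, and the averaged effect 4652, against 7717 with array weights and 7520 without both SHS arrays numbered 4.

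Differences near 0, called under no setting, changed sign under some. With quantile normalization these were, in females, Ahrr (0.01563), Arnt 1437042_at (-0.01568) and Tiparp 1426721_s_at (-0.02413), and in males Ahr 1450695_at (-0.008586). With array weights they were Arnt 1437042_at in females (-0.005407), and Ahr 1450695_at (-0.003847) and Cyp1a2 (-0.01726) in males. Without both SHS arrays numbered 4 they were Arnt 1437042_at in females (-0.0582) and Cyp1a2 in males (-0.03162). With single arrays left out the female differences ran from -0.1181 to 0.03799 for Ahr 1422631_at, -0.1198 to 0.06967 for Ahr 1450695_at, -0.04933 to 0.03608 for Ahrr, -0.08561 to 0.05854 for Arnt 1437042_at, -0.1747 to 0.02041 for Cyp1a2, -0.01176 to 0.02943 for Tiparp 1426721_s_at and -0.06958 to 0.2041 for Tiparp 1452161_at. The male ones ran from -0.0566 to 0.06418 for Ahr 1450695_at, -0.05734 to 0.07138 for Arnt 1449696_at, -0.01684 to 0.293 for Cyp1a1, -0.04489 to 0.126 for Cyp1a2, -0.07255 to 0.05481 for Cyp1b1 1432081_at and -0.07752 to 0.07987 for Nqo1. The cause was not tested. Low signal limits Ahrr, Cyp1a2 and Cyp1b1 1432081_at.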
